A study of Mus musculus with 6 samples.

Results

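Cell cycle and DNA replication genes were followed as a set of 41 protein-coding genes, picked by gene symbol out of 55450 annotated genes in the count table. Of these, 25 encode products that act in G2 phase and mitosis (G2/M) and 16 encode products that act in G1 and S phase (G1/S). No symbol was repeated in the table, and all 41 genes passed the low-count filter that left 22056 genes for testing. The tumours were grown in C57BL/6 mice from MTE-Ras cells injected under the skin of the right flank. MTE-Ras is a mouse epithelial line transformed by oncogenic RAS. PV-10, an injectable solution of rose bengal, was given into the tumours of one group (n = 3) and phosphate-buffered saline (PBS) to those of the other (n = 3). The host strain, the cell line, its RAS genotype and the route of injection were common to both groups. The labels give neither the dose, the number of injections, the time of collection nor the age of the mice, and the cells of the tumour were not separated from those of the host before RNA was taken. The comparison asks how the RNA of each gene stood in PV-10 tumours relative to PBS tumours.

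A dividing cell passes from G1 into S phase when cyclin D and cyclin E kinases inactivate the retinoblastoma protein and free the E2F factors, which switch on genes for origin licensing, nucleotide supply and DNA synthesis. Later, cyclin A and cyclin B partner CDK1, and the factors B-MYB and FOXM1 act through the MuvB complex to switch on the genes for spindle assembly, chromosome segregation and cytokinesis. RNA of the G2/M genes is therefore highest shortly before and during mitosis, and Mki67, the gene of the Ki-67 antigen, is the marker of proliferating tumour cells in histology.

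The classes are known to be read through different promoter elements, which can be seen in the upstream sequences of the members. RefSeq promoter windows (GRCm38.p6, 250 bases before to 50 after the gene start, 300 bases in all) were matched by symbol for 33 of the 41 members. Tpx2, Ccna2, Ccne2, Aurkb, Ccnd1, Kif20a, Mcm4 and Foxm1 had none. The cell cycle genes homology region, the site bound by MuvB, was searched as TTTGAA or TTTAAA on both strands. It was present in 18 of 20 G2/M windows (90.0%), in 4 of 13 G1/S windows (30.8%) and in 27.6% of all 32851 windows. The CCAAT box, searched as CCAAT on both strands, was present in 18 of 20 G2/M windows (90.0%), in 8 of 13 G1/S windows (61.5%) and in 37.4% of all windows. An E2F site, searched as TTGGCGC or TTCCCGC or TTGCCGC or TTCGCGC on both strands, was present in 3 of 20 G2/M windows (15.0%), in 8 of 13 G1/S windows (61.5%) and in 9.57% of all windows. The reverse of a CCAAT box can share letters with the first of these E2F sites. The homology region and the CCAAT box occurred together in 17 of 20 G2/M windows, in 3 of 13 G1/S windows and in 10.7% of all windows. These matches describe the letters of the windows and were not tested against the tumour data.

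The windows of the 3 genes that passed the test of PV-10 against PBS are shown first. Those of Pcna and Birc5 follow, 2 members with higher read counts, scaled to library size, in every PV-10 tumour than in any PBS tumour. Capitals mark each of the motifs above, read 5′ to 3′ on the strand of the gene.
Mki67 (chr7:135716330-135716629, minus strand): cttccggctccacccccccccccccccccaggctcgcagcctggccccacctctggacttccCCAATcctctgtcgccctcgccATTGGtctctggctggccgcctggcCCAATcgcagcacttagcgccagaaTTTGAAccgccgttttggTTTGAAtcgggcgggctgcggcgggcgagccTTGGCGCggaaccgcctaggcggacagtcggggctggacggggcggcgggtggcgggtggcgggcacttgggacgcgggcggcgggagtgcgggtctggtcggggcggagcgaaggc
Cenpf (chr1:189688037-189688336, minus strand): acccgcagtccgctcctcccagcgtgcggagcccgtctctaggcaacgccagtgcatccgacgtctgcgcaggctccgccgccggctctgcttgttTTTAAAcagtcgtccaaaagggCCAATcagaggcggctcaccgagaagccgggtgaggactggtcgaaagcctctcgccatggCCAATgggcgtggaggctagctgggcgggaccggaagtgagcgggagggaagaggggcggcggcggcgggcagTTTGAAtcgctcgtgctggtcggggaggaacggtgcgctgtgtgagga
Cenpe (chr3:135212313-135212612, plus strand): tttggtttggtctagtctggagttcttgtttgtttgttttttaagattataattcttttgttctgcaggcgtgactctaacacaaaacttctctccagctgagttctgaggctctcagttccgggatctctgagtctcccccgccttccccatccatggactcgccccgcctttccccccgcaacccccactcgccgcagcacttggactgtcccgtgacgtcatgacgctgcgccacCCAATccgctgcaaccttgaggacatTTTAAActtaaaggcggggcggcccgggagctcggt
Pcna (chr2:132253131-132253430, minus strand): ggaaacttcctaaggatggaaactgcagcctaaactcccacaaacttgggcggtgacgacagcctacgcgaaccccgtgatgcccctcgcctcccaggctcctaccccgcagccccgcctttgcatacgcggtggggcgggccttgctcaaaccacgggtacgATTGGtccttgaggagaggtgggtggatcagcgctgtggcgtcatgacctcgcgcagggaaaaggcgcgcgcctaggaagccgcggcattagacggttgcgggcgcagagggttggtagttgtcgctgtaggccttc
Birc5 (chr11:117848987-117849286, plus strand): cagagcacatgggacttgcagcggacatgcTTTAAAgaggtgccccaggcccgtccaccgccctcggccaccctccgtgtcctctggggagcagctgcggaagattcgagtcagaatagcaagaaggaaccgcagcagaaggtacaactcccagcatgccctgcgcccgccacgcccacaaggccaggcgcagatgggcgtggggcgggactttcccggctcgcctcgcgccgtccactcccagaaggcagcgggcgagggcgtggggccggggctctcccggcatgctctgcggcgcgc
The Mki67 window held 2 homology regions, 3 CCAAT boxes and 1 E2F site. The Cenpf window held 2 homology regions and 2 CCAAT boxes, and that of Cenpe 1 of each. The Pcna window held 1 CCAAT box and none of the other motifs, and the Birc5 window held 1 homology region.

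The libraries of the PV-10 group were less alike than those of the PBS group. Total counts were 60082066, 36730318 and 94203331 in PV-10 tumours 1, 2 and 3 and between 87386266 and 98717951 in PBS tumours. A count was recorded for 35314, 28343 and 22764 genes in the PV-10 tumours and for 19163 to 23068 genes in the PBS tumours. Levels are given as CPM, read counts scaled to library size, or as TPM, scaled to transcript length as well. In log2 CPM, PV-10 tumour 3 had correlations across genes of 0.874 and 0.822 with tumours 1 and 2 of its own group and of 0.909 to 0.930 with the PBS tumours. The median log2 change was 0.30 over all tested genes and 0.06 over tested protein-coding genes, the kind to which every member belongs. A change near 0 therefore stood below most tested genes but near the middle of the protein-coding ones. Counts of the members ran between 243 and 118859, so sampling noise of reads was small beside the spread between tumours. Krt8 and Krt18, keratins of simple epithelium, stood at 157 to 354 CPM in PV-10 tumours and 235 to 394 CPM in PBS tumours. The epithelial adhesion gene Epcam stayed at or below 1.31 CPM in PV-10 tumours and 0.37 CPM in PBS tumours, and the basal keratin Krt5 at or below 1.26 and 0.55 CPM.

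Mki67, Cenpf and Cenpe, 3 genes of mitosis with long transcripts, fell in PV-10 tumours and no other member passed the test. These are 7.32% of the members against 1.92% of all tested genes called lower, and 0 members were called higher against 3.17% of all tested genes (edgeR quasi-likelihood test, adjusted p under 0.05). At an unadjusted p under 0.05, 13 members were lower (31.7%), against 14.5% of all tested genes, and 4 higher (9.76%), against 15.6% of all tested genes. The log2 change was negative for 26 members (63.4%), against 41.5% of all tested genes and for 47.9% of tested protein-coding genes. In CPM, the PV-10 and PBS tumours did not overlap in 11 members that were lower (26.8%), against a background of 16.8%. They did not overlap in 5 that were higher (12.2%), against 22% of all tested genes. With DESeq2, the tool named in the labels, 11 members were called lower (26.8%, against 8.41% of genes) and 4 higher (9.76%, against 21.2% of genes). Among tested protein-coding genes alone the shares without overlap were 21.5% lower and 21.4% higher, so the share of lower members is near that of coding genes in general. The RNA came from whole tumours, in which fewer cycling cells and less RNA of these genes per cell cannot be told apart.

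**Figure D1:**
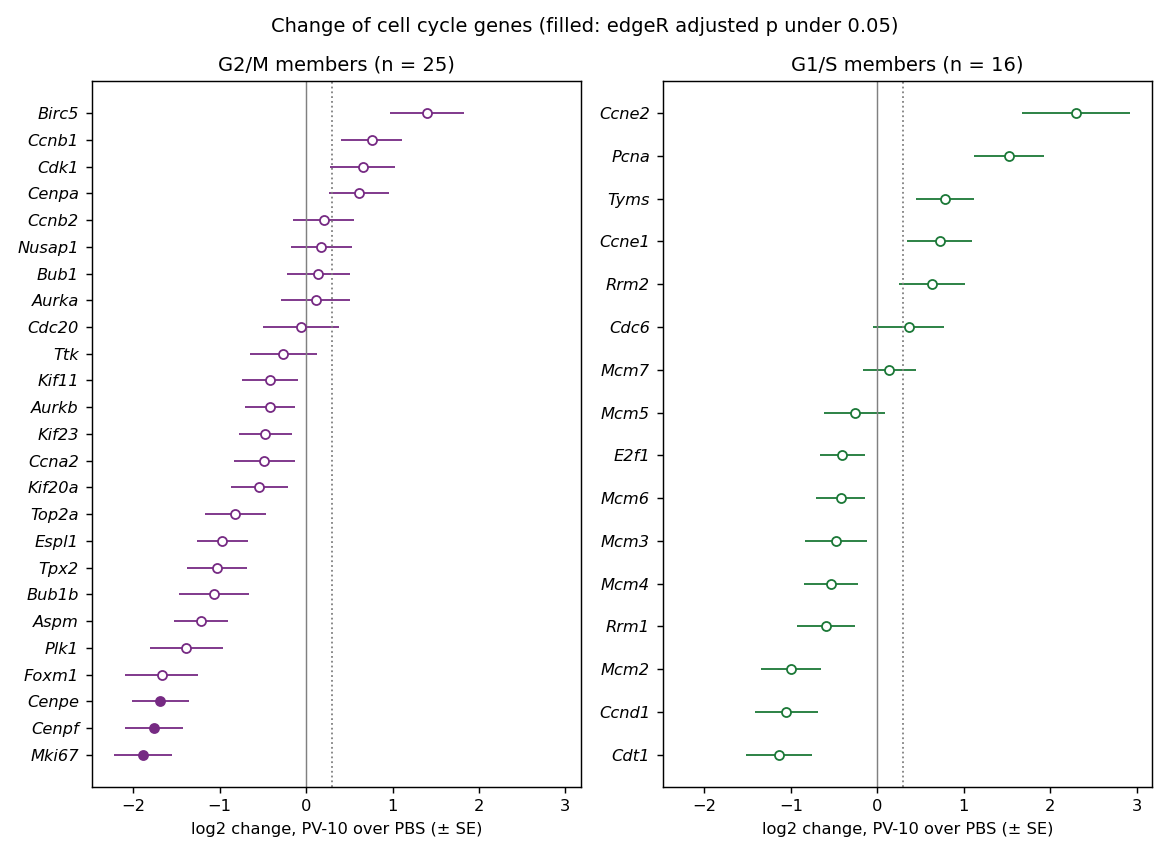
Log2 change of each member, PV-10 over PBS (points, x axis), with its standard error (bars), for G2/M members on the left and G1/S members on the right. Filled points passed the test, the solid line is no change and the dotted line is the median of all tested genes at 0.30. Cenpe, Cenpf and Mki67 lie at the low end of the G2/M panel, and both panels hold members on either side of 0.

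Mki67 (ENSMUSG00000031004.8, chr7:135689784-135716361, mm10, minus strand) encodes the Ki-67 protein, which coats mitotic chromosomes and keeps them apart. Its level was 151, 131 and 197 CPM in PV-10 tumours 1, 2 and 3, against 654, 375 and 744 CPM in PBS tumours 1, 2 and 3. Every PV-10 tumour was below every PBS tumour, with the means 3.70-fold apart, lower in PV-10. The log2 change was -1.89 (SE 0.34, adjusted p = 0.0443, edgeR quasi-likelihood test). Per transcript length its level was 6.31, 5.93 and 12.1 TPM in PV-10 tumours, against 46.1, 36.7 and 66.0 TPM in PBS tumours, which placed it 19th of the 41 members in PV-10 tumours and 4th in PBS tumours.

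The other called genes belong to the kinetochore, the structure that ties chromosomes to spindle fibres. Cenpf (ENSMUSG00000026605.14, chr1:189640606-189688086, minus strand), a large coiled-coil protein of the outer kinetochore, had 24.7, 15.5 and 24.4 CPM in PV-10 tumours, against 66.4, 50.9 and 102 CPM in PBS tumours. Its groups stood apart, with a log2 change of -1.76 (SE 0.34, adjusted p = 0.0443, edgeR). Cenpe (ENSMUSG00000045328.11, chr3:135212537-135273611, plus strand), the kinesin that moves chromosomes to the spindle equator, had 29.4, 27.9 and 36.4 CPM in PV-10 tumours, against 102, 62.8 and 137 CPM in PBS tumours. The PV-10 tumours lay close together and below all PBS tumours, with a log2 change of -1.69 (SE 0.33, adjusted p = 0.0443, edgeR). The shared adjusted p is the lowest in the whole table. Cenpa, the histone that marks centromeres, was highest in PV-10 tumour 1, at 173, 89.0 and 78.1 CPM in PV-10 tumours, against 83, 60.5 and 79.7 CPM in PBS tumours, and its groups overlapped (adjusted p = 0.270, edgeR).

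The calls of Mki67, Cenpf and Cenpe depended on which tumours were used. Without PV-10 tumour 3 their adjusted p-values were 0.0024, 0.0068 and 0.0052. Without PV-10 tumour 1 all of them stood at 0.105, and without PV-10 tumour 2 at 0.205. Leaving out PBS tumour 1, 2 or 3 gave adjusted p-values between 0.0735 and 0.0851, so each of these 5 omissions ended the calls. The same fits called between 1 and 5 genes in the whole table. The log2 changes in them were about as large as with all tumours, between -2.16 and -1.71 for Mki67, -2.0 and -1.48 for Cenpf and -1.97 and -1.43 for Cenpe. PV-10 tumour 3 set alone against the PBS tumours gave log2 changes of -1.57 for Mki67, -1.57 for Cenpf and -1.45 for Cenpe. The spread in that fit comes from the PBS tumours alone, so its calls are not read here.

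Foxm1, the factor that activates G2/M genes together with B-MYB and MuvB, was at 26.4, 32.3 and 69.3 CPM in PV-10 tumours, against 129, 93.6 and 186 CPM in PBS tumours. The groups did not overlap, PV-10 tumour 3 lay nearest to the PBS tumours, and the log2 change of -1.67 (SE 0.42) just missed the threshold (adjusted p = 0.0510, edgeR). Of the mitotic kinases, Plk1, which drives spindle building and exit from mitosis, had 14.0, 9.75 and 27.0 CPM in PV-10 tumours, against 51.2, 27.6 and 53.9 CPM in PBS tumours. PV-10 tumour 3 almost met PBS tumour 2, and the log2 change was -1.38 (SE 0.42, adjusted p = 0.0685, edgeR). The Aurora kinases Aurka, of the spindle poles, and Aurkb, of the centromere, together with Ttk, the checkpoint kinase also known as MPS1, overlapped between the groups, with log2 changes of 0.11, -0.42 and -0.26. The 4 kinases thus had a median log2 change of -0.34, with 0 called by edgeR and Plk1 alone at an unadjusted p under 0.05 and called by DESeq2.

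Among the spindle assembly genes, Aspm, which focuses microtubules at the poles, had 24.3, 23.4 and 22.7 CPM in PV-10 tumours, against 53.6, 34.2 and 75.3 CPM in PBS tumours. The PV-10 tumours were nearly equal to each other and below every PBS tumour (log2 change -1.21, SE 0.32, adjusted p = 0.0535, edgeR). Tpx2, which activates Aurora A on microtubules, had 54.0, 33.4 and 56.5 CPM in PV-10 tumours, against 114, 59.3 and 121 CPM in PBS tumours. Its highest PV-10 tumour stood just under the lowest PBS tumour (log2 change -1.03, SE 0.35, adjusted p = 0.0846, edgeR). Nusap1, which bundles spindle microtubules, overlapped, with a log2 change of 0.18. The kinesins Kif11, Kif20a and Kif23, motors of spindle poles and of cytokinesis, all had negative log2 changes between -0.54 and -0.42 and groups that overlapped. Kif23 held 28.6 to 29.1 CPM in the PV-10 tumours and 24.4 to 52.1 CPM in the PBS tumours, so the spread lay in the PBS group.

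The remaining late genes did not move together. Top2a, the enzyme that untangles sister DNA, had 133, 93.5 and 167 CPM in PV-10 tumours, against 242, 146 and 306 CPM in PBS tumours, with PV-10 tumour 3 above PBS tumour 2 (log2 change -0.82, adjusted p = 0.152, edgeR). Espl1, the protease separase that cuts cohesin at anaphase, ran between 11.2 and 14.4 CPM in PV-10 tumours and between 19.6 and 35.2 CPM in PBS tumours. Its groups did not overlap (log2 change -0.97, adjusted p = 0.0694, edgeR). Cdc20, the activator of the anaphase-promoting complex, had a log2 change of -0.06, and 13.6 to 37.7 CPM over all 6 tumours. The checkpoint kinase Bub1 was at 0.14 and its partner Bub1b at -1.06 on the log2 scale, both with overlapping groups.

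Birc5 (ENSMUSG00000017716.15, chr11:117849251-117855743, plus strand), which encodes survivin of the chromosomal passenger complex, had the opposite sign of change to the median of its class. Its level was 50.1, 32.4 and 19.0 CPM in PV-10 tumours, against 12.1, 7.53 and 18.9 CPM in PBS tumours. PV-10 tumours 1 and 2 stood well above the PBS group, PV-10 tumour 3 and PBS tumour 3 were all but equal, and the log2 change of 1.40 (SE 0.43) missed the threshold (adjusted p = 0.0710, edgeR). Ccnb1, cyclin B1, had 106, 54.3 and 54.8 CPM in PV-10 tumours, against 46.3, 29.8 and 51.4 CPM in PBS tumours. The groups were separated by a narrow gap between PV-10 tumour 2 and PBS tumour 3 (log2 change 0.76, SE 0.35, adjusted p = 0.182, edgeR). Its kinase Cdk1 had 102, 76.0 and 45.5 CPM in PV-10 tumours, against 54.9, 29.1 and 57.9 CPM in PBS tumours, with PV-10 tumour 3 inside the PBS range (log2 change 0.65, adjusted p = 0.273, edgeR). Ccnb2 and Ccna2, the other mitotic cyclins, overlapped at log2 changes of 0.20 and -0.48. Per length the direction of Ccnb2 and Cdk1 was the opposite one. Cdk1 was at 32.2 ± 6.26 TPM in PV-10 tumours and 41.3 ± 11.7 TPM in PBS tumours (SD, n = 3 each). The groups of Birc5 and Ccnb1 overlapped per length, with Birc5 at 12.75 TPM in PV-10 tumour 3 and 17.88 TPM in PBS tumour 3.

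**Figure D2:**
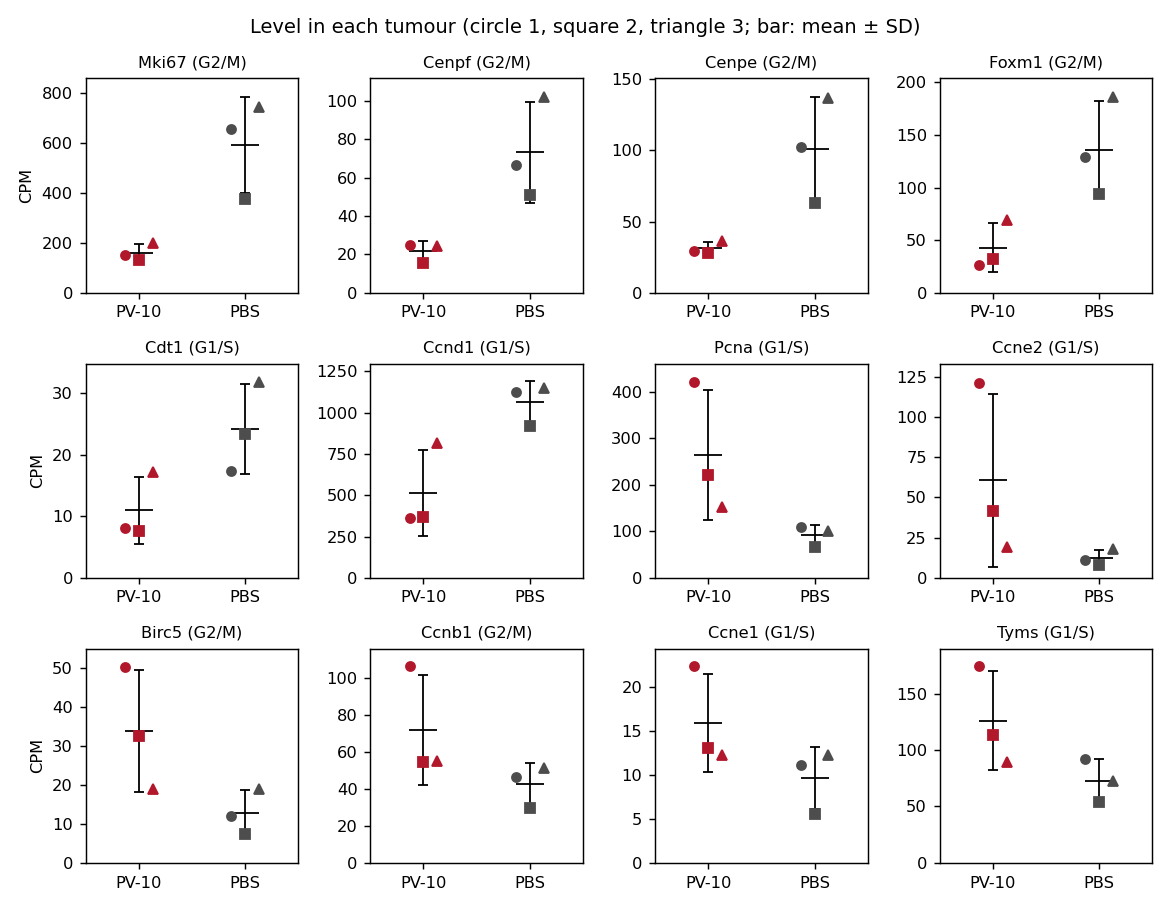
CPM of 12 members in each tumour (y axis from 0, each panel on its own scale), PV-10 in red on the left and PBS in grey on the right of each panel, with marker shape giving the tumour number and bars the mean ± SD (n = 3 each). PV-10 tumour 3 (triangle) is the PV-10 tumour nearest to the PBS level in Foxm1, Ccnd1, Cdt1, Pcna and Ccne2, whereas in Cenpf it lies among the other PV-10 tumours.

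Pcna (ENSMUSG00000027342.14, chr2:132249162-132253314, minus strand), the sliding clamp that holds DNA polymerases on their template, had 421, 221 and 152 CPM in PV-10 tumours, against 109, 67.0 and 101 CPM in PBS tumours. Every PV-10 tumour was above every PBS tumour, and the mean was 2.87-fold higher, yet the log2 change of 1.52 (SE 0.40) missed the threshold (adjusted p = 0.0547, edgeR). Per length it was the highest of the 41 members in PV-10 tumours, at 131, 74.7 and 69.4 TPM, and the second in PBS tumours, at 57.0, 49.0 and 64.9 TPM. Without PV-10 tumour 3 the log2 change was 1.81 and passed the test (adjusted p = 0.0046, edgeR).

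The G1 cyclins did not move as a group. Ccne2, cyclin E2, which with CDK2 starts S phase, had 121, 41.7 and 18.9 CPM in PV-10 tumours, against 11.3, 7.64 and 17.9 CPM in PBS tumours. PV-10 tumour 1 was far above all others while PV-10 tumour 3 barely exceeded PBS tumour 3, and the log2 change of 2.30 (SE 0.62), the largest of any member in either direction, missed the threshold (adjusted p = 0.0573, edgeR). Ccne1, cyclin E1, had 22.4, 13.1 and 12.3 CPM in PV-10 tumours, against 11.1, 5.61 and 12.3 CPM in PBS tumours. PV-10 tumour 3 and PBS tumour 3 were equal to 3 digits, and the log2 change was 0.72 (SE 0.37, adjusted p = 0.226, edgeR). Ccnd1, cyclin D1, the partner of CDK4 and CDK6 that carries RAS signals into the cycle, had 359, 369 and 814 CPM in PV-10 tumours, against 1125, 922 and 1147 CPM in PBS tumours. All PV-10 tumours were lower, tumour 3 least so, with a log2 change of -1.05 (SE 0.37, adjusted p = 0.0929, edgeR). Per length Ccnd1 was the highest member in PBS tumours at 271 ± 37.9 TPM and the second in PV-10 tumours at 80.6 ± 57.9 TPM (SD, n = 3 each). The groups of Ccne2 and Ccne1 overlapped per length, with Ccne2 at 6.99 TPM in PV-10 tumour 3 and 10 TPM in PBS tumour 3.

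Origin licensing loads the MCM helicase onto DNA in G1 with the help of Cdc6 and Cdt1. Cdt1 had 8.11, 7.56 and 17.2 CPM in PV-10 tumours, against 17.4, 23.4 and 31.8 CPM in PBS tumours. PV-10 tumour 3 almost reached PBS tumour 1, and the log2 change of -1.14 (SE 0.38) missed the threshold (adjusted p = 0.0848, edgeR). Cdc6 overlapped between the groups at a log2 change of 0.36. Of the 6 MCM subunits, 5 had negative log2 changes and Mcm7 was at 0.14, with a median of -0.45 and 0 called by edgeR, Mcm2 alone being at an unadjusted p under 0.05 and called by DESeq2. Mcm2 had the most negative log2 change, with 22.3, 18 and 40.0 CPM in PV-10 tumours, against 55.5, 42.0 and 63.3 CPM in PBS tumours. It was the only MCM gene whose groups did not overlap (log2 change -1.0, SE 0.34, adjusted p = 0.0887, edgeR).

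The enzymes of nucleotide supply were divided. Tyms, thymidylate synthase, had 175, 113 and 89.5 CPM in PV-10 tumours, against 91.9, 54.1 and 72.9 CPM in PBS tumours. PV-10 tumour 3 lay just inside the PBS range (log2 change 0.79, SE 0.33, adjusted p = 0.150, edgeR). Rrm2, the small subunit of ribonucleotide reductase, had a log2 change of 0.63 and its large subunit Rrm1 one of -0.59, both with overlapping groups. E2f1, the activator of this class, ran between 14.7 and 21.1 CPM in PV-10 tumours and between 20.6 and 26.0 CPM in PBS tumours, with PV-10 tumour 3 above PBS tumour 1 (log2 change -0.40, adjusted p = 0.323, edgeR).

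Set side by side, the G2/M members had a median log2 change of -0.47, with 17 negative and 8 positive, and the G1/S members one of -0.33, with 9 negative and 7 positive. Relative to the median of all tested genes these medians were -0.77 and -0.64. Relative to that of tested protein-coding genes they were -0.53 and -0.39. The difference of the class medians, -0.14, was small beside the range within each class, -1.89 to 1.40 in G2/M and -1.14 to 2.30 in G1/S. In CPM the groups did not overlap in 8 of 25 G2/M members that were lower and 2 that were higher. They did not overlap in 3 of 16 G1/S members in each direction. Among tested protein-coding genes the shares were 21.5% lower and 21.4% higher, so the G1/S counts were near the background. Relative to the mean of the PBS tumours, the median log2 level of the G2/M members was -0.25, -0.93 and -0.49 in PV-10 tumours 1, 2 and 3, and 0.15, -0.68 and 0.35 in PBS tumours 1, 2 and 3. For the G1/S members it was -0.06, -0.64 and -0.12 in PV-10 tumours, and -0.05, -0.44 and 0.35 in PBS tumours. PBS tumour 2 therefore lay within the range of the PV-10 tumours by both class levels in CPM, and the groups overlapped. In TPM they did not. There the median log2 level of the G2/M members was -1.17, -1.76 and -0.92 in PV-10 tumours, and -0.11, -0.43 and 0.41 in PBS tumours. That of the G1/S members was -0.78, -1.42 and -0.47 in PV-10 tumours, and -0.31, -0.21 and 0.36 in PBS tumours, so every PV-10 tumour lay below every PBS tumour by both classes. The median of all tested genes was itself negative on the TPM scale, at -0.21 on log2(TPM + 1).

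**Figure D3:**
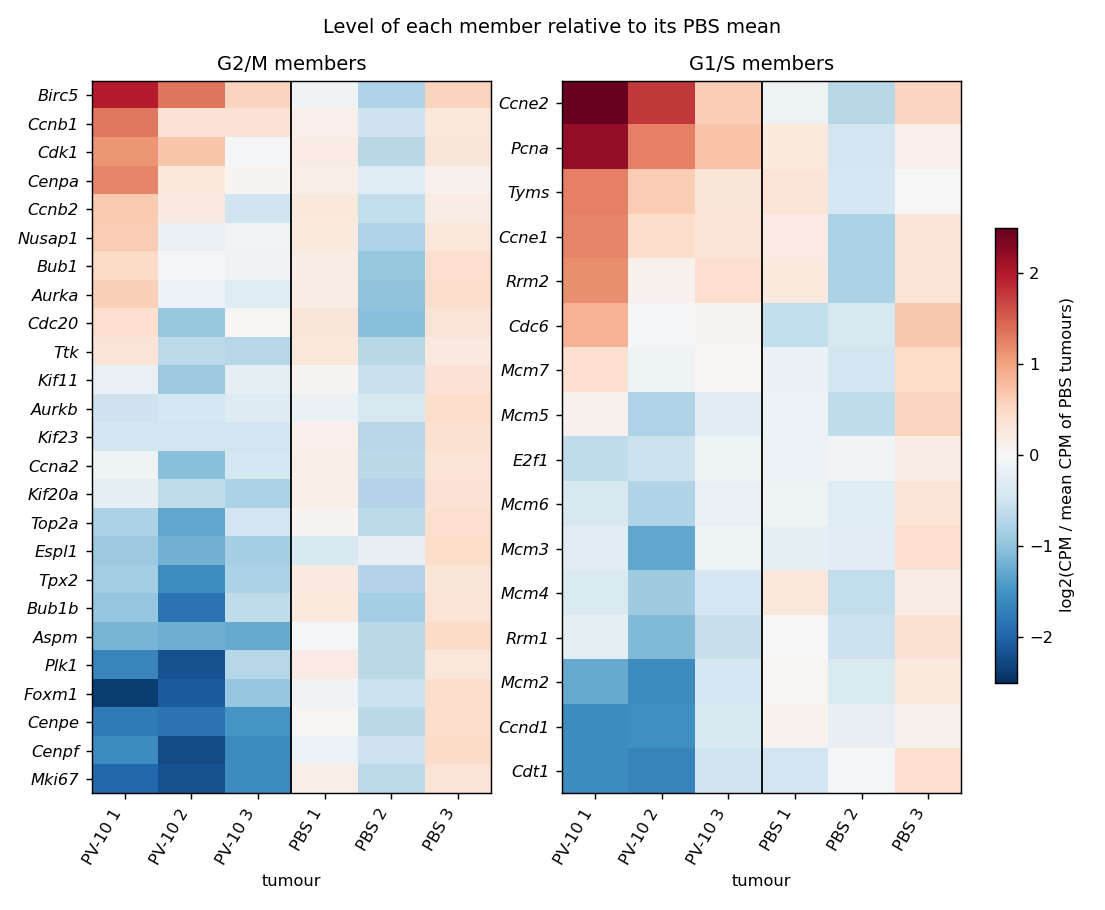
Log2 of CPM over the mean CPM of the PBS tumours (colour, red above and blue below) for each member (rows, sorted by log2 change) in each tumour (columns), G2/M on the left and G1/S on the right, with a black line between PV-10 and PBS tumours. PBS tumour 2 is blue in nearly all rows, and PV-10 tumours 1 and 2 hold the strongest colours at both ends.

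The order of the tumours was alike across the members within the PBS group. PBS tumour 2 was the lowest PBS tumour for 37 of the 41 members, whereas it was the lowest for 33.9% of all tested genes, and PBS tumour 3 was the highest for 35 members. In the PV-10 group, tumour 1 was the highest for 25 members. PV-10 tumour 2 was the lowest for 23 of the 41 members, whereas it was the lowest for 27.3% of all tested genes. Without PV-10 tumour 3, 13 members were called lower (31.7%) against a background of 16.4%, and 5 higher (12.2%) against a background of 25% of all tested genes. The genes lower in that fit were Plk1, Bub1b, Cenpe, Cenpf, Tpx2, Aspm, Mki67, Top2a, Espl1, Foxm1, Mcm2, Cdt1 and Ccnd1, and those higher were Cdk1, Birc5, Pcna, Tyms and Ccne2. In this fit 10 of the lower genes were G2/M members and 3 were G1/S members. Leaving out any of the other 5 tumours in turn called 0 members, where between 1 and 5 genes were called in all, so the count of members there is that of the background.

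The members that fell were long genes, and the log2 change of the 41 members moved with the length of their longest transcript. Across members Pearson's r with log2 length was -0.55 and Spearman's rho -0.51 (n = 41), given as a description, since all genes share the same 6 libraries. The same measure was -0.13 (rho -0.29) over all tested protein-coding genes. The 14 shortest members, of 1518 to 2965 bases, had a median log2 change of 0.03, with 7 negative, and all protein-coding genes of that length one of 0.31. The 13 members of 3006 to 3806 bases had a median of -0.47, against 0.01 for protein-coding genes of that length. The 14 longest, of 3884 to 11130 bases, had a median of -0.89, with 11 negative, against -0.36 for protein-coding genes of that length. At each length the median of the members lay below that of coding genes in the same range. Mki67, Cenpf, Cenpe and Aspm, of 10061, 11130, 7910 and 9867 bases, are the longest members, and Pcna, of 1518 bases, is the shortest.

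After the trend with transcript length and GC content was removed from each library, Mki67, Cenpf and Cenpe had log2 changes of -1.93, -1.95 and -1.86, with adjusted p-values of 0.134 (edgeR). That fit called 0 members and 2 genes in all, with 5570 genes at an unadjusted p under 0.05, and the median of all tested genes was -0.30. The class medians there were -1.11 for G2/M and -0.64 for G1/S, a difference of -0.46. Pcna, Birc5 and Ccne2 kept positive log2 changes of 0.44, 0.66 and 0.77, while Ccnb1 turned to -0.22. Before removal, each library had a slope of log2 CPM on effective length, the length implied by the ratio of count to TPM. Relative to the mean of the libraries, it was -0.10, -0.04 and -0.09 per doubling in PV-10 tumours 1, 2 and 3. In PBS tumours 1, 2 and 3 it was 0.07, 0.12 and 0.05, so the slope and the treatment cannot be told apart. The part of RNA length or quality in the changes of the members was not tested.

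**Figure D4:**
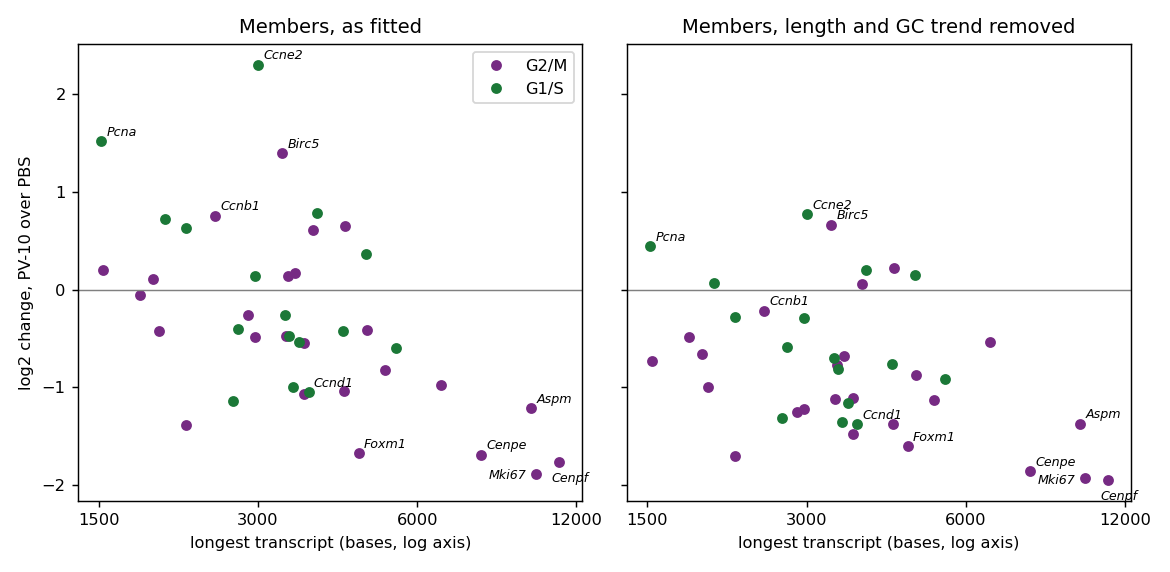
Log2 change of each member, PV-10 over PBS (y axis), against the length of its longest annotated transcript (x axis, log scale, bases), G2/M in purple and G1/S in green, as fitted (left) and with the length and GC trend removed (right). The long genes Mki67, Cenpf and Cenpe stay lowest in both panels, while Pcna, Ccne2 and Birc5 come closer to 0 on the right. There the long Aspm, at -1.37, lies above the shorter Plk1 (2199 bases) at -1.70 and Foxm1 (4652 bases) at -1.60.

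Around the members, 120 further genes of the cell cycle machinery in 10 lists were examined, of which 119 could be tested. In PV-10 tumours 8 of them rose (6.72%, against 3.17% of all tested genes) and 3 fell (2.52%, against 1.92%). Each of these 11 calls was lost when a tumour other than PV-10 tumour 3 was left out and when the length and GC trend was removed. The partners of the early cyclins had the lowest median log2 change of any list, -0.97 over 5 tested genes. Cdk6, the kinase bound by D-type cyclins, fell, with 72.7, 74.1 and 117 CPM in PV-10 tumours, against 192, 241 and 312 CPM in PBS tumours. The groups stood well apart (log2 change -1.50, SE 0.32, adjusted p = 0.0443, edgeR), and its longest transcript, of 11525 bases, is longer than that of any member.

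Of the 7 inhibitors of cyclin-dependent kinases, 0 were called (edgeR), with 1 lower and 1 higher at an unadjusted p under 0.05, and the median log2 change was -0.18. Cdkn1a, the p53 target p21 that halts the cycle, had 55.5, 59.3 and 135 CPM in PV-10 tumours, against 226, 200 and 205 CPM in PBS tumours. All PV-10 tumours were lower, tumour 3 least so (log2 change -1.34, SE 0.37, adjusted p = 0.0594, edgeR). Cdkn1b, or p27, had a log2 change of 0.47 and Cdkn2a, which encodes p16 and ARF, one of -0.27, both with overlapping groups. The pocket proteins and other E2F factors had a median of -0.55, with 10 of 12 negative, 0 called (edgeR), and 3 lower and 1 higher at an unadjusted p under 0.05. Rb1, the retinoblastoma protein, was at 13.3, 11.4 and 31.0 CPM in PV-10 tumours, against 33.6, 40.1 and 36.2 CPM in PBS tumours, with PV-10 tumour 3 close under the PBS range (log2 change -0.98, adjusted p = 0.122, edgeR). E2f4, a repressor E2F, and E2f8, which dampens E2F targets, overlapped at -0.64 and -0.75. Of the MuvB core and B-MYB, Rbbp4, a histone-binding subunit, rose (129, 110 and 88.4 CPM in PV-10 tumours, against 49.7, 49.0 and 57.6 CPM in PBS tumours, log2 change 1.07, adjusted p = 0.0496, edgeR). Lin9 was at 0.23 and Mybl2, which encodes B-MYB, at -0.37, both with overlapping groups.

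The origin recognition complex, on which the MCM helicase is loaded, and GINS, which activates it, had positive medians. The helicase itself had a negative median, and the licensing factors were divided, with Cdt1 at -1.14 and Cdc6 at 0.36. All 6 subunits of the origin recognition complex and all 4 of GINS had positive log2 changes, with medians of 0.75 and 1.07, and neither complex had a gene that passed the test. With the trend in length and GC content removed, those medians came to -0.14 and 0.15. Gmnn, geminin, the inhibitor of Cdt1, rose, with 26.3, 22.3 and 8.99 CPM in PV-10 tumours, against 5.27, 3.23 and 5.50 CPM in PBS tumours. PV-10 tumour 3 was much nearer to the PBS tumours than the other two (log2 change 2.04, SE 0.43, adjusted p = 0.0443, edgeR). Among polymerases and their helpers, Rpa3, the smallest subunit of the single-strand binding protein, rose with 61.8, 51.6 and 17.9 CPM in PV-10 tumours, against 9.11, 4.79 and 10.4 CPM in PBS tumours (log2 change 2.43, SE 0.48, adjusted p = 0.0443, edgeR). Rfc3 of the clamp loader and Pold4, a small subunit of polymerase delta, rose too, with log2 changes of 1.62 and 1.26 (adjusted p = 0.0443 and 0.0463, edgeR). The large catalytic subunits Pold1 and Pole had log2 changes of -0.98 and -1.39 and did not pass the test. The list of polymerases and clamp loader had a median of 0.24 over 22 genes.

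The mitotic lists were divided as well. Condensin and cohesin, the rings that fold chromosomes and hold sisters together, had a median log2 change of -0.49, with 11 of 13 negative. Smc1a of cohesin fell, with 29.4, 38.3 and 79.6 CPM in PV-10 tumours, against 168, 128 and 152 CPM in PBS tumours (log2 change -1.60, SE 0.39, adjusted p = 0.0489, edgeR). The groups did not overlap, and PV-10 tumour 3 was the highest of its group. The outer kinetochore and mitotic checkpoint genes had a median of 0.52, and Cenpk, an inner kinetochore subunit, rose with 41.4, 28.1 and 6.90 CPM in PV-10 tumours, against 5.13, 3.25 and 4.39 CPM in PBS tumours (log2 change 2.58, SE 0.56, adjusted p = 0.0443, edgeR). In the anaphase-promoting complex, the median was 0.39 and the small subunits Cdc26 and Anapc10 rose, with log2 changes of 1.3 and 1.62 (adjusted p = 0.0443 and 0.0446, edgeR), while its activator Fzr1 was at -0.73 and not called. The DNA damage checkpoint list had a median of -0.57, and Atm, the kinase that answers double-strand breaks, fell, with 24.8, 18.3 and 30.6 CPM in PV-10 tumours, against 50.8, 50.9 and 63.3 CPM in PBS tumours (log2 change -1.16, SE 0.28, adjusted p = 0.0488, edgeR). Across the 119 tested genes Pearson's r between log2 change and log2 length was -0.47, again as a description.

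**Figure D5:**
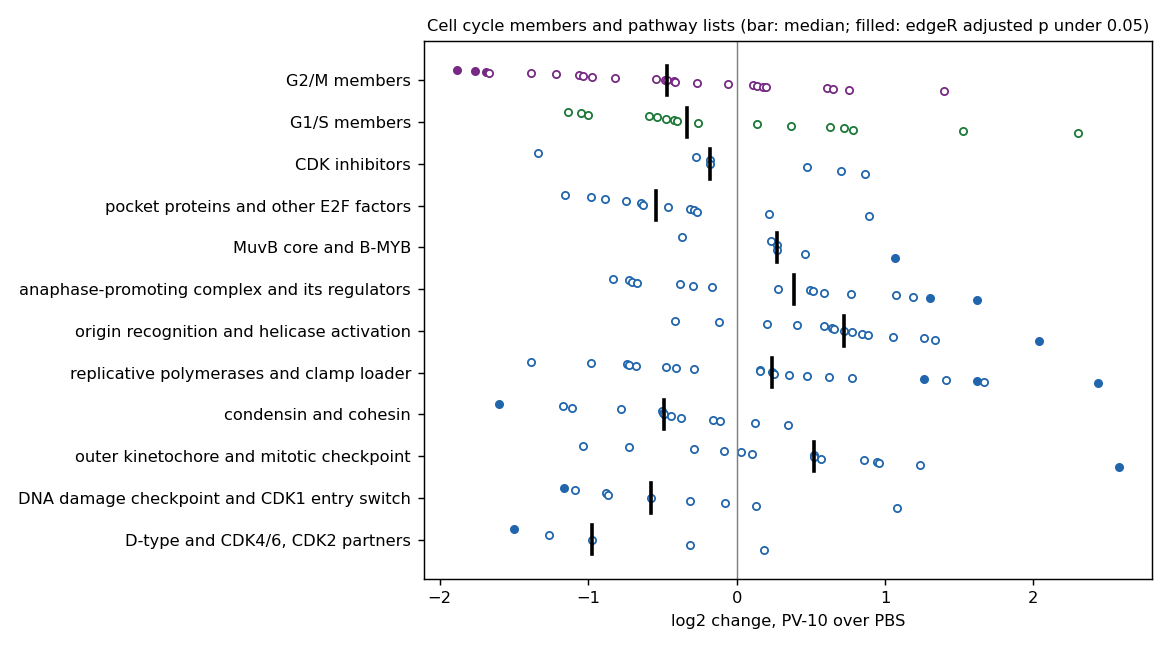
Log2 change, PV-10 over PBS (x axis), of every tested gene (points) in the 2 member classes and the 10 pathway lists (rows), with the median of each as a bar and called genes filled. Medians run between -0.97 for D-type and CDK4/6, CDK2 partners and 0.72 for origin recognition and helicase activation, and each list holds genes on both sides of 0.

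Markers of other cell types were read in the same tumours, and of 38 that could be tested 0 were called by edgeR. An unadjusted p under 0.05 was found for 12 (31.6%), against 30.0% of all tested genes, and DESeq2 called 7 (18.4%), against 29.6% of genes. The summed level of 4 skeletal muscle markers was 49.6, 267 and 3.60 CPM in PV-10 tumours 1, 2 and 3, against 14.0, 2.90 and 1.83 CPM in PBS tumours. The muscle genes stood out in PV-10 tumour 2, in which 23 of the 41 members and 27.3% of all tested genes had the lowest level of their group. The summed level of 4 macrophage markers was 285, 278 and 436 CPM in PV-10 tumours, against 790, 483 and 457 CPM in PBS tumours. By this sum every PV-10 tumour was below every PBS tumour. Taken singly, Csf1r and Itgam did not overlap between the groups, whereas Adgre1 and Cd68 did. The 7 epithelial markers summed to 467, 496 and 633 CPM in PV-10 tumours, against 782, 485 and 675 CPM in PBS tumours, and overlapped. Krt8 and Krt18 made up most of each sum. Taken singly, only Cdh1 did not overlap. It stood at 3.06, 4.05 and 5.62 CPM in PV-10 tumours, against 8.75, 8.78 and 10.3 CPM in PBS tumours (log2 change -1.12, adjusted p = 0.0627, edgeR). The 5 fibroblast markers summed to between 1997 and 3512 CPM in PV-10 tumours and between 1831 and 4002 CPM in PBS tumours. The 4 endothelial markers summed to between 92.0 and 299 CPM in PV-10 tumours and between 173 and 349 CPM in PBS tumours. Both sums overlapped. Taken singly, only Lum of the fibroblast markers did not overlap, and it was higher in PV-10 tumours. Of the endothelial markers only Kdr did not overlap, and it was lower in PV-10 tumours. The B cell markers summed to 3.24, 4.46 and 3.56 CPM in PV-10 tumours, against 0.53, 0.70 and 1.55 CPM in PBS tumours, and the adipocyte markers to 13.7, 19.1 and 7.36 CPM in PV-10 tumours, against 4.98, 3.31 and 6.23 CPM in PBS tumours. Both sums were low, and higher in every PV-10 tumour than in any PBS tumour. In PV-10 tumour 3, however, 3 of the 4 adipocyte markers had a count of 0, as did 3 in PBS tumour 1. Fabp4 alone made up the adipocyte sum of PV-10 tumour 3. Of the B cell markers, Cd79a overlapped between the groups. Summed markers of T cells and neutrophils stayed at or below 55.4 CPM in PV-10 tumours and 27.6 CPM in PBS tumours, and overlapped. The neutrophil sum joined genes that went opposite ways without overlap. S100a8 ran between 3.08 and 4.31 CPM in PV-10 tumours and between 0 and 0.83 CPM in PBS tumours. Csf3r ran between 0 and 4.79 CPM in PV-10 tumours and between 5.54 and 7.71 CPM in PBS tumours. The part of cell composition in the changes of the members was not tested.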

How the data were processed

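Bulk RNA from 3 PV-10 and 3 PBS tumours was sequenced after DNase treatment, from 100 ng of RNA per strand-specific library, per the labels' protocols. The authors' count table holds whole-number gene counts, rounded estimates made per the labels' protocols with BBMerge 37.02, cutadapt 1.8.1, STAR 2.7.7a on mm10 and RSEM 1.3.0 with the Gencode vM21 gene model. The authors' TPM table, from the same processing, is scaled by transcript length and to a common total. Reads that fit several genes are divided among them by RSEM, which leaves genes with near-identical copies uncertain.

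Counts were tested with edgeR 4.0.16 (R 4.3.3, TMM scaling, default expression filter, robust quasi-likelihood F test, two-sided), with Benjamini-Hochberg adjustment over 22056 genes and a threshold of 0.05. CPM values are TMM-scaled, standard errors were derived from the log2 change and the F statistic, and errors on means are SD. The steps were tested on simulated data. The p-values rest on 3 tumours per group, and intervals of reads would cover counting error only. Alternatives were DESeq2 1.42.0, limma 3.58.1 on counts and on log2(TPM + 1) or log2(TPM + 0.1), other scalings and filters, protein-coding genes alone, a replicate block, removal of trends with effective length or with transcript length and GC content (splines fitted per tumour), PV-10 tumour 3 alone, and each tumour left out. The length of the longest Gencode transcript and the comparison with protein-coding genes were added after seeing the data.

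The members, the 10 pathway lists and the markers were chosen with earlier results of these data known, so no p-value was computed over a list. Values in every tumour are given, by rule, for called members, for the 3 members of smallest p in each class and for members without overlap that oppose their class median. Other members given tumour by tumour were chosen after their values were seen. From each pathway list, called genes of smallest adjusted p or the most abundant genes are named, with Cdkn1a, Cdkn1b, Cdkn2a, Rb1, Mybl2, Lin9, Fzr1 and Gmnn, and Pold1, Pole and the complexes were added after their values were seen. Sequences are from RefSeq.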

Additional observations from a re-analysis of the deposited data

How the results depend on the processing

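Mki67, Cenpf and Cenpe kept negative log2 changes under every alternative run, but which members passed the threshold depended on the processing and on single tumours. As fitted, 699 genes were higher and 423 lower, with 0 and 3 members and 8 and 3 pathway genes among them. Counts are given below in that order, higher before lower in each pair. With DESeq2, 5841 and 2319 genes, 4 and 11 members and 25 and 13 pathway genes were called. With DESeq2's size factors in edgeR the counts were 1469 and 1068 genes, 2 and 5 members, and 15 and 7 pathway genes. With scaling by library size alone the counts were 980 and 1461 genes, 2 and 7 members, and 9 and 8 pathway genes. With no low-count filter the counts were 2037 and 2627 genes, 3 and 12 members, and 17 and 16 pathway genes. With a mean count of at least 50 the counts were 1593 and 1112 genes, 3 and 5 members, and 20 and 7 pathway genes. With limma-voom the counts were 835 and 1181 genes, 1 and 4 members, and 8 and 6 pathway genes. With limma on log2(TPM + 1) the counts were 251 and 3786 genes, 0 and 16 members, and 1 and 29 pathway genes (median log2 change G2/M -1.09 and G1/S -0.91). With limma on log2(TPM + 0.1) the counts were 418 and 3580 genes, 0 and 15 members, and 1 and 26 pathway genes (median log2 change G2/M -1.25 and G1/S -1.02). With a fit of protein-coding genes alone the counts were 1532 and 1247 genes, 3 and 6 members, and 19 and 8 pathway genes. With the effective length trend removed the counts were 2 and 0 genes, 0 and 0 members, and 0 and 0 pathway genes (median log2 change G2/M -0.97 and G1/S -0.76). With the transcript length and GC trend removed the counts were 2 and 0 genes, 0 and 0 members, and 0 and 0 pathway genes (median log2 change G2/M -1.11 and G1/S -0.64 and difference of the classes -0.46). With PV-10 tumour 3 alone set against PBS the counts were 0 and 0 genes, 0 and 0 members, and 0 and 0 pathway genes.

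Leaving out each tumour in turn gave between 1 and 6884 genes higher, 0 and 4515 lower, 0 and 5 members higher, 0 and 13 lower, and 0 and 34 pathway genes higher and 0 and 32 lower, with every high count coming from the fit without PV-10 tumour 3. With PV-10 tumour 3 alone the spread comes from the PBS tumours, and the lone tumour is assumed to vary like them. The G2/M median ran between -0.77 and -0.27 and the G1/S median between -0.50 and -0.081 in these fits, and their difference between -0.31 and -0.051.

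Some genes that were not called as fitted turned sign in other fits, and the cause was not tested. The median of all tested genes, 0.30 as fitted, was between -0.43 and -0.21 in the fits on TPM and with a trend removed. The log2 changes of the genes that turned sign were as follows. With the transcript length and GC trend removed they were Ccnb1 -0.22, Ccnb2 -0.73, Aurka -0.66, Bub1 -0.77, Nusap1 -0.68, Mcm7 -0.29, Rrm2 -0.28, Cdkn1b -0.073 and Lin9 -0.68. With limma on log2(TPM + 1) they were Ccnb2 -0.58, Cdk1 -0.33, Aurka -0.50, Bub1 -0.68, Cenpa -0.10, Nusap1 -0.64, Mcm7 -0.25, Cdc6 -0.27, Rrm2 -0.13, Cdkn1b -0.19 and Lin9 -0.35. With limma on log2(TPM + 0.1) they were Ccnb2 -0.62, Cdk1 -0.34, Aurka -0.55, Bub1 -0.81, Cenpa -0.11, Nusap1 -0.73, Mcm7 -0.26, Cdc6 -0.38, Rrm2 -0.13, Cdkn1b -0.19 and Lin9 -0.41. With the effective length trend removed they were Ccnb2 -0.49, Cdk1 -0.11, Aurka -0.53, Bub1 -0.33, Cenpa -0.10, Nusap1 -0.37, Mcm7 -0.42, Cdkn1b -0.11 and Lin9 -0.38. With PV-10 tumour 3 alone against PBS they were Ccnb2 -0.49, Cdk1 -0.042, Aurka -0.28, Bub1 -0.070, Nusap1 -0.049, Cdc20 0.047, E2f4 0.050, Mybl2 0.094 and Lin9 -0.032. Cdc20 was at 0.044 with DESeq2, 0.052 with DESeq2's size factors in edgeR, 0.10 with a mean count of at least 50 and 0.083 with a fit of protein-coding genes alone. With single tumours left out the ranges were Ccnb2 -0.082 to 0.46, Aurka -0.25 to 0.36, Bub1 -0.21 to 0.37, Nusap1 -0.13 to 0.31, Cdc20 -0.42 to 0.22, Mcm5 -0.54 to 0.078, Mcm7 -0.082 to 0.40 and Lin9 -0.048 to 0.37.

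The replicate numbers of the labels did not pair the tumours. Deviations from the group means correlated at -0.05, 0.07 and 0.07 for numbers 1, 2 and 3, and 1 of 3 pairs correlated best with its own number. With the number as a replicate block, 1054 and 1818 genes, 2 and 10 members and 14 and 12 pathway genes were called.

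Each group had 3 tumours and the biological coefficient of variation was 0.777, so small changes were not detectable in this design, and depth was not the limit for the members. Scaling moved the median of all tested genes to 0.43 with DESeq2's size factors, 0.21 with library size alone and -0.21 on log2(TPM + 1), against 0.30 as fitted, and the members' median stayed below it in each. PV-10 tumour 3, the length of transcripts and the dose and time, which the labels do not give, limit how far the calls carry to other tumours.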
